A study of Mus musculus with 9 samples.

Results

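This report covers Trp53, the gene of the tumour suppressor p53, and 7 genes that p53 switches on directly: Mdm2, Cdkn1a, Ccng1, Trp53inp1, Phlda3, Aen and Zmat3. The members were fixed by name as Trp53 and well-known targets outside the BCL-2 family, with earlier results of these data known. Their shares beside those of all genes are therefore descriptions. All 8 were found among the 28111 genes of the count table, and all 8 were among the 14817 genes with enough counts to be tested. The cells were induced regulatory T cells, CD4 T cells driven in culture to express Foxp3, from C57BL/6J mice. There were 4 libraries from Glut1 transgenic mice (Glut1Tg), named for a plasma membrane glucose transporter, and 5 from control mice (WT). The labels further divide the libraries by mouse group. In group 1 were Glut1Tg replicates 2, 3 and 4 with WT replicates 1 and 3, and in group 2 Glut1Tg replicate 1 with WT replicates 2, 4 and 5. The sources used here do not give the promoter of the transgene, the age of the mice, the culture conditions, or what sets the mouse groups apart. Whether each library had its own animal or culture is not said either, so p-values reflect the spread among these libraries alone, and that spread may be technical.

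p53 is a transcription factor that is held at a low level by Mdm2, a ubiquitin ligase that marks it for degradation. Stress such as DNA damage frees p53 from Mdm2, and the active factor raises genes that halt the cell cycle, repair damage or kill the cell. Mdm2 is itself a target, which closes a negative feedback loop. Because p53 is controlled mainly at the level of the protein, the level of Trp53 mRNA is not a measure of p53 activity. p53 has also been described as a repressor of glucose transporter genes, Slc2a1 (which encodes Glut1) among them.

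The DNA that p53 binds is a pair of similar half-sites of 10 letters. Promoter sequences, 250 bases before to 50 bases after a gene's start, were available from RefSeq (GRCm38.p6, the same assembly as mm10) for 6 of the 8 genes, as 8 windows. They were searched for the canonical p53 response element of 20 letters with no spacer, on a pattern that reads the same on both strands, with the fixed C and G of each half-site required and up to 3 mismatches elsewhere. The closest matches, with 1 mismatch each, lay before Cdkn1a and Ccng1. Only 0.0670% of all 32851 promoter windows held a match that close. The 220 bases that hold each site are printed because they are the closest matches among these genes. Capitals mark the site, and both are written 5′ to 3′ on the strand of the gene.

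Cdkn1a, plus strand, chr17:29090729-29090948: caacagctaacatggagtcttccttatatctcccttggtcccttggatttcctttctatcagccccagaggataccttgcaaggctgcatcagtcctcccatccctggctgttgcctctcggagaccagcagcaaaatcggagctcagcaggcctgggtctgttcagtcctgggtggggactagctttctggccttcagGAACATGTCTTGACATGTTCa
Ccng1, minus strand, chr11:40755317-40755536: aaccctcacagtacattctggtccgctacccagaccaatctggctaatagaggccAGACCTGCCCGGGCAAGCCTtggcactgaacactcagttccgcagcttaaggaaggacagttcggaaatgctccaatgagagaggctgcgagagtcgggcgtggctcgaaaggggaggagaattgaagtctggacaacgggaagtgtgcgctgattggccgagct

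The Cdkn1a site lay 51 to 32 bases before the upstream of its 2 annotated starts in the table, and the Ccng1 site lay 195 to 176 bases before the gene's start. Weaker matches with 3 mismatches, a closeness reached in 1.38% of all windows, were found at Aen (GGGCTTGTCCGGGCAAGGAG, chr7:78895937-78895956) and 75 to 56 bases before Trp53 itself (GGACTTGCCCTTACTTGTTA, chr11:69580284-69580303). The windows of Mdm2, of Phlda3 and of the downstream Cdkn1a start held no match at that limit. A match describes letters in the DNA and was not tested as a binding site.

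Libraries differed beyond their labels, and several of the values below follow those differences. Total counts ran from 20881035 to 31196428 per library. The check of the genotype labels, Slc2a1, stood at 260.2, 496, 279 and 457 CPM (reads of a gene scaled to a common library total) in Glut1Tg replicates 1 to 4 and at 29.7 to 58.7 CPM in WT. Foxp3 (621 to 1164 CPM) and Cd4 (448 to 802 CPM) were present in every library. Glut1Tg replicate 1 and WT replicate 2, both of mouse group 2, lay apart on the first principal component and led in the proliferation gene Mki67, with 1652 and 1621 CPM where the other 7 had 346 to 808 CPM. Glut1Tg replicate 3 had the highest summed level of 8 mast cell and basophil markers (2610 CPM, against 116 to 912 CPM in the other 8 libraries) and of 6 myeloid markers (254 CPM, against 5.37 to 21.7 CPM). Over mouse groups, the mast cell and basophil sum ran from 319 to 2610 CPM in group 1 and from 116 to 912 CPM in group 2, and the myeloid sum from 12.3 to 254 CPM and from 5.37 to 21.7 CPM. The mast cell markers Cpa3 and Fcer1a had 3.56 and 0.45 CPM in Glut1Tg replicate 1 and 2.48 and 0.41 CPM in WT replicate 2. The other 7 libraries had 91.3 to 1670 CPM and 15.8 to 261 CPM. Ms4a2, Mcpt8 and Gata2 were also lowest in Glut1Tg replicate 1 and WT replicate 2. Cyp11a1 and Hdc did not set this pair apart. Cyp11a1 had 22.5 and 30.7 CPM in the pair and 23.1 CPM in WT replicate 5. Hdc had 0.64 and 0.77 CPM in the pair and 0.73 CPM in WT replicate 5. Kit, at 79.6 to 146 CPM in every library, gave 86.8 of the 116 CPM summed in Glut1Tg replicate 1 and 124 of 159 CPM in WT replicate 2. Glut1Tg replicate 3 also led in the summed NK cell (30.3 CPM, others up to 9.02), dendritic cell (27.0 CPM, others up to 7.49) and erythroid markers (37.8 CPM, others up to 22.5). The NK cell sum there was mostly Eomes (29.1 CPM). Ncr1, Klrb1c and Klrk1 had 0.080, 0.040 and 1.08 CPM there and were highest in other libraries. Of the dendritic cell sum there, Itgax had 17.3 CPM. Flt3 and Xcr1 were also highest there, but Zbtb46 was highest in Glut1Tg replicate 1 (6.01 CPM). The 10 Treg and T cell markers of Glut1Tg replicate 3 summed to 3517 CPM, where the others had 4337 to 7100 CPM. Il2ra alone gave 2959 CPM in Glut1Tg replicate 1 and 2386 CPM in WT replicate 2. Glut1Tg replicate 3 was the lowest library for Cd4, Cd3e, Trac, Foxp3 and Ikzf2. It was not the lowest for Cd3g, Il2ra, Ctla4, Ikzf4 and Tnfrsf18. CD8 T cell markers summed to 7.07 to 10.5 CPM. The part of these differences in the results below was not tested, except where a value without a library is given. In bulk RNA, fewer cells of a type and less RNA per cell cannot be told apart.

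**Figure D1:**
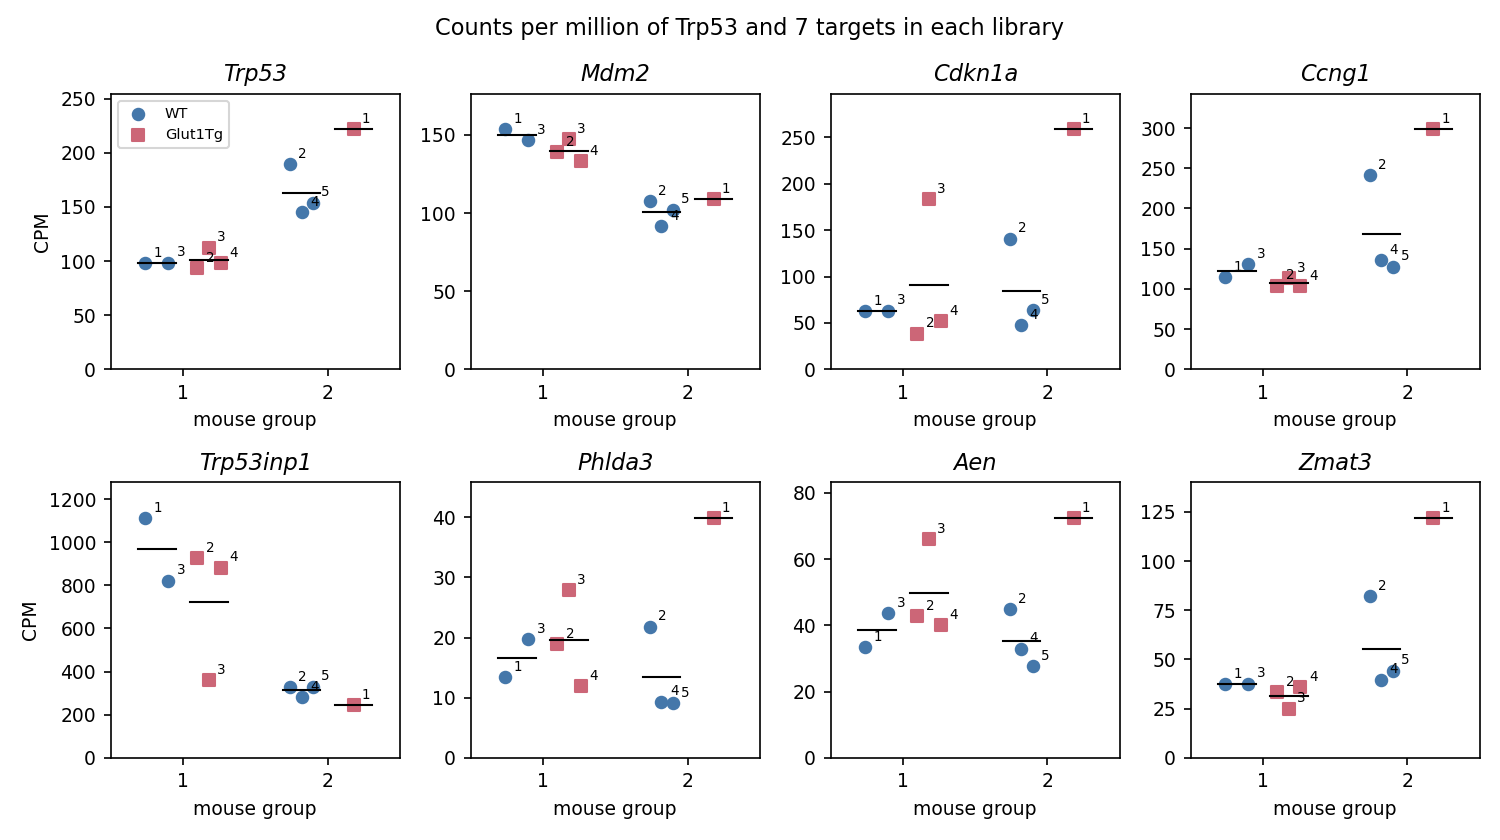
Level of each gene in each library in CPM (y axis, from 0) by mouse group (x axis). Blue circles are WT and red squares Glut1Tg libraries, numbered by replicate, and black lines are means. The mouse groups do not overlap for Trp53, Mdm2, Trp53inp1 and Zmat3, and Glut1Tg replicate 1 is the highest library in 6 of the 8 panels.

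Members of the family differed between mouse groups, in both directions, and none passed between genotypes. In mouse group 2, Trp53 was 1.85-fold, Ccng1 1.82-fold and Zmat3 2.19-fold higher than in mouse group 1. Mdm2 was lower (log2 -0.49), and so was Trp53inp1 (log2 -1.61). These 5 of 8 genes (62.5%) passed edgeR's quasi-likelihood test with genotype in the model (adjusted p under 0.05 over all genes), where 24.1% of all genes tested passed, 13.1% higher and 11% lower. The 4 genes whose mouse groups did not overlap in CPM (Trp53, Zmat3, Mdm2 and Trp53inp1) compare with 21.8% of all genes. Cdkn1a, Phlda3 and Aen did not pass. Between Glut1Tg and WT, with mouse group in the model, 0 of the 8 passed by edgeR, DESeq2 or limma, 1 (Aen) had an unadjusted edgeR p under 0.05, and 0.00675% of all genes passed by edgeR. The genotypes overlapped in CPM for all 8 genes, where 1.59% of all genes did not overlap.

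How many passed depended on which libraries were included. With both Glut1Tg replicate 1 and WT replicate 2 left out, 0 of the 8 passed by edgeR, and 4% of all genes passed. An unadjusted edgeR p under 0.05 was reached there by 3 of the 8 and by 3262 of all 14817 genes. The log2 fold changes were then -1.66 for Trp53inp1, -0.62 for Mdm2 and 0.62 for Trp53, against -1.61, -0.49 and 0.89 with all libraries, and 0.11 for Ccng1 and 0.17 for Zmat3, against 0.87 and 1.13. Trp53 and Trp53inp1 were the 2 that passed without Glut1Tg replicate 1 (4.51% of all genes) or without WT replicate 1 (12.9%). There were 3 without Glut1Tg replicate 2 (17.8%), Glut1Tg replicate 4 (17%), WT replicate 2 (14.4%) or WT replicate 3 (13.3%). Among the 5 WT libraries Trp53inp1 alone passed (4.33%). These libraries alone also set the mouse group estimate without Glut1Tg replicate 1, so those settings are not separate checks.

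**Figure D2:**
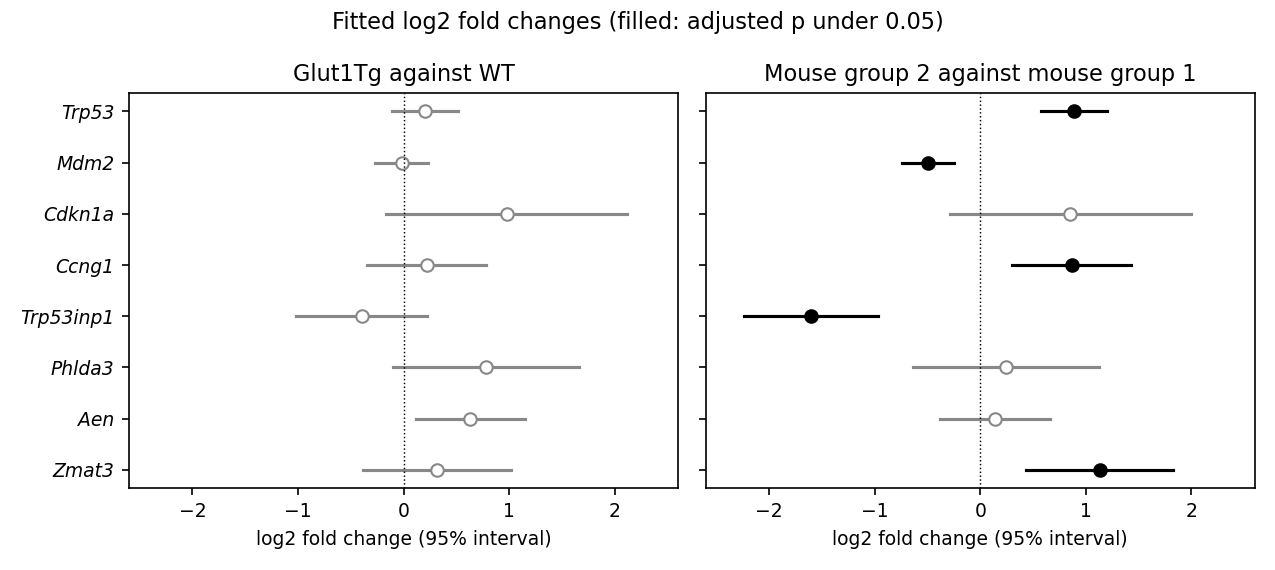
Fitted log2 fold changes (x axis) of the 8 genes for Glut1Tg against WT (left) and mouse group 2 against mouse group 1 (right). Bars are 95% intervals and filled points passed at an adjusted p under 0.05. The points for Trp53, Ccng1 and Zmat3 are filled to the right of 0 and those for Mdm2 and Trp53inp1 to the left, in the mouse group panel only.

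Trp53 itself (ENSMUSG00000059552, mm10 chromosome 11, 69580359 to 69591873, plus strand) stood at 97.9 and 98.6 CPM in WT replicates 1 and 3 and at 93.5, 112 and 97.8 CPM in Glut1Tg replicates 2 to 4, all of mouse group 1. In mouse group 2 it stood at 189, 145 and 154 CPM in WT replicates 2, 4 and 5 and at 222 CPM in Glut1Tg replicate 1. The 4 libraries of mouse group 2 thus lay above all 5 of mouse group 1, a pattern that 10.5% of all genes showed in that direction. The means were 177.5 ± 35.0 CPM (SD, n = 4) and 100.04 ± 7.22 CPM (SD, n = 5), and the fitted log2 fold change was 0.89 (SE 0.14; edgeR adjusted p = 0.00401). Among WT libraries alone the log2 fold change was 0.73 (edgeR adjusted p = 0.0628). Means by genotype were 131 ± 60.7 CPM (SD, n = 4) for Glut1Tg against 137 ± 39.0 CPM (SD, n = 5) for WT. The genotype difference, taken with mouse group in the model, was 0.20 on the log2 scale (SE 0.14; 95% interval of the fold 0.927 to 1.43; edgeR adjusted p = 0.682). Its sign turned to -0.061 with no mouse group term. The neighbouring gene Wrap53 runs the other way, with 103 bases between its start and that of Trp53. Wrap53 stood at 28.0 to 36.4 CPM. A processed pseudogene of Trp53 is also annotated in the mouse genome, and the sources used here do not say how reads shared with it were counted.

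Mdm2 (ENSMUSG00000020184, chromosome 10, 117688875 to 117710758, minus strand), the ligase that degrades p53, went the other way. It stood at 154 and 147 CPM in WT replicates 1 and 3 and at 139, 147 and 133 CPM in Glut1Tg replicates 2 to 4. In mouse group 2 it stood at 108, 91.7 and 102 CPM in WT replicates 2, 4 and 5 and at 109 CPM in Glut1Tg replicate 1. Every library of mouse group 2 lay below every library of mouse group 1, which 11.4% of all genes did in that direction. The means were 103 ± 7.85 CPM (SD, n = 4) and 144 ± 7.92 CPM (SD, n = 5), with a log2 fold change of -0.49 (SE 0.11; edgeR adjusted p = 0.0144). The call sat close to the threshold. Leaving out Glut1Tg replicate 1, WT replicate 1 or WT replicate 3 gave an edgeR adjusted p of 0.0546, 0.0527 and 0.0521, and the log2 fold change stayed between -0.58 and -0.45 over all 9 single omissions. Mdm2 had the narrowest spread of the 8 genes across libraries: its log2 range of 0.74 was exceeded by most genes, with 15.4% of genes tested having a smaller one. Between genotypes the fitted log2 difference was -0.019 (SE 0.11; 95% interval of the fold 0.831 to 1.17; edgeR adjusted p = 0.963), and 0.13 with no mouse group term.

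Among the cell cycle targets, Cdkn1a encodes p21, which inhibits cyclin-dependent kinases, and Ccng1 encodes cyclin G1, a partner of the phosphatase PP2A in p53 feedback. Cdkn1a (ENSMUSG00000023067, chromosome 17, 29090976 to 29100727, plus strand) stood at 259, 38.4, 184 and 52.0 CPM in Glut1Tg replicates 1 to 4. In WT replicates 1 to 5 it stood at 62.9, 141, 63.2, 47.6 and 63.9 CPM. Thus 3 libraries were high, the pair with the most Mki67 and Glut1Tg replicate 3, and the other 6 lay between 38.4 and 63.9 CPM. Its log2 range over libraries, 2.75, was the widest of the 8 genes and wider than that of 88.2% of genes tested. The high libraries fell in both genotypes and both mouse groups, and neither comparison passed. Glut1Tg averaged 133 ± 106 CPM (SD, n = 4), and WT 75.7 ± 37.1 CPM (SD, n = 5). The fitted genotype fold was 1.96 with a 95% interval of 0.890 to 4.34 (edgeR adjusted p = 0.681). Its log2 fold change of 0.97 became 0.49 without Glut1Tg replicate 1 and 0.51 without Glut1Tg replicate 3. For mouse group the log2 fold change was 0.85 (SE 0.51; edgeR adjusted p = 0.241). An unnamed transcript on the opposite strand shares 273 exon bases with Cdkn1a, and the sources used here do not name the strand setting of the counting.

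Ccng1 (ENSMUSG00000020326, chromosome 11, 40748552 to 40755311, minus strand) stood at 298 CPM in Glut1Tg replicate 1 and 241 CPM in WT replicate 2. The other 7 libraries lay between 104 and 135 CPM, and of the remaining libraries of mouse group 2, WT replicate 4 (135 CPM) lay just above the 104 to 131 CPM of mouse group 1 and WT replicate 5 (128 CPM) within it. Means were 201 ± 83.2 CPM (SD, n = 4) in mouse group 2 against 113 ± 10.9 CPM (SD, n = 5) in mouse group 1, with a log2 fold change of 0.87 (SE 0.25; edgeR adjusted p = 0.0345). Left without the 2 high libraries it was 0.11 (edgeR adjusted p = 0.698), and limma-voom gave an adjusted p of 0.0527 with all libraries. Leaving out Glut1Tg replicates 1, 2 or 4 or WT replicates 1 or 2, each alone, gave an edgeR adjusted p of 0.353, 0.0646, 0.0662, 0.0680 and 0.0837, and a log2 fold change of 0.44 without Glut1Tg replicate 1. The genotype difference was 0.22 (SE 0.25; edgeR adjusted p = 0.783) and turned to -0.20 within mouse group 1.

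Trp53inp1 (ENSMUSG00000028211, chromosome 4, 11156431 to 11174379, plus strand) encodes a stress protein that promotes p53 phosphorylation and autophagy. It showed the largest mouse group difference of the 8 and ran against Trp53. Its levels were 1113 and 822 CPM in WT replicates 1 and 3, 926 and 883 CPM in Glut1Tg replicates 2 and 4, and 361 CPM in Glut1Tg replicate 3. In mouse group 2 it stood at 329, 280.3 and 329.8 CPM in WT replicates 2, 4 and 5 and at 243 CPM in Glut1Tg replicate 1. The groups did not overlap, although Glut1Tg replicate 3, the library with the highest mast cell and myeloid marker sums, lay near mouse group 2. Mouse group 2 averaged 296 ± 41.7 CPM (SD, n = 4) and mouse group 1 821 ± 279 CPM (SD, n = 5). The log2 fold change was -1.61 (SE 0.28; 95% interval of the fold 0.212 to 0.510; edgeR adjusted p = 0.00606). It stayed between -1.71 and -1.50 when any 1 library was left out, with edgeR adjusted p from 0.000673 to 0.0472, and among WT libraries it was -1.63 (edgeR adjusted p = 0.0235). This was the only one of the 8 to pass in WT alone. Without Glut1Tg replicate 1 the mouse group estimate also rests on WT libraries only, with the spread taken from Glut1Tg libraries as well. There Trp53 passed too. Leaving out both Glut1Tg replicate 1 and WT replicate 2 gave a log2 fold change as large (-1.66) with an edgeR adjusted p of 0.0856. By genotype the fitted log2 difference was -0.40 (SE 0.27; edgeR adjusted p = 0.682), and 0.070 with no mouse group term.

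Zmat3 (ENSMUSG00000027663, chromosome 3, 32334792 to 32366014, minus strand) encodes a zinc finger protein that binds RNA and takes part in p53-dependent growth control. It resembled Ccng1, with 122 CPM in Glut1Tg replicate 1, 82.3 CPM in WT replicate 2 and 25.0 to 44.4 CPM in the other 7 libraries. Mouse group 2 did not overlap mouse group 1, since WT replicates 4 and 5 (39.8 and 44.4 CPM) lay just above the 25.0 to 37.7 CPM of mouse group 1. It averaged 72.1 ± 38.3 CPM (SD, n = 4) in mouse group 2 against 33.9 ± 5.27 CPM (SD, n = 5) in mouse group 1, with a log2 fold change of 1.13 (SE 0.31; edgeR adjusted p = 0.0291). Without the 2 high libraries it was 0.17 (edgeR adjusted p = 0.686). Leaving out Glut1Tg replicates 1, 2 or 4 or WT replicates 1, 2 or 3, each alone, gave an edgeR adjusted p of 0.340, 0.0577, 0.0574, 0.0505, 0.0748 and 0.0508, and a log2 fold change of 0.55 without Glut1Tg replicate 1. The genotype difference was 0.32 (SE 0.31; edgeR adjusted p = 0.743) and turned to -0.26 within mouse group 1.

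Phlda3 and Aen had similar profiles. Phlda3 (ENSMUSG00000041801, chromosome 1, 135766119 to 135769136, plus strand) encodes a small protein that competes with AKT for membrane lipids, and Aen (ENSMUSG00000030609, chromosome 7, 78895854 to 78911209, plus strand) encodes a nuclease that helps to degrade DNA in dying cells. Phlda3 stood at 39.9, 18.9, 27.8 and 11.9 CPM in Glut1Tg replicates 1 to 4 and at 13.4, 21.8, 19.8, 9.37 and 9.15 CPM in WT replicates 1 to 5. Aen stood at 72.4, 42.8, 66.0 and 40.1 CPM in Glut1Tg and at 33.5, 44.9, 43.6, 33.0 and 27.8 CPM in WT, in the same order. For both genes Glut1Tg replicates 1 and 3 were the highest libraries, WT replicates 4 and 5 the lowest, and the genotypes overlapped. Unlike Ccng1 and Zmat3, they were high in Glut1Tg replicate 3, where Zmat3 had its lowest value (25.0 CPM).

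Aen averaged 55.3 ± 16.3 CPM (SD, n = 4) for Glut1Tg against 36.6 ± 7.40 CPM (SD, n = 5) for WT. The fitted genotype log2 fold change was 0.63 (SE 0.23; fold 1.55, 95% interval 1.08 to 2.22). Of the 8 genes it was the only one with an unadjusted edgeR p under 0.05 for genotype, which 6% of all genes had. It did not pass over all genes (edgeR adjusted p = 0.681). Leaving out Glut1Tg replicate 1 or 3 gave a log2 fold change of 0.33 or 0.52. Within mouse group 1, which alone also sets the estimate without Glut1Tg replicate 1, it was 0.36. For Phlda3 the means were 24.6 ± 12.1 CPM (SD, n = 4) and 14.7 ± 5.86 CPM (SD, n = 5), with a log2 fold change of 0.78 (SE 0.39; edgeR adjusted p = 0.681) that was 0.20 without Glut1Tg replicate 1 and 0.67 without Glut1Tg replicate 3. Between mouse groups, Aen differed by 0.14 (SE 0.23; edgeR adjusted p = 0.690) and Phlda3 by 0.24 (SE 0.39; edgeR adjusted p = 0.677) on the log2 scale. Both signs reversed among WT libraries alone, to -0.13 and -0.30.

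**Figure D3:**
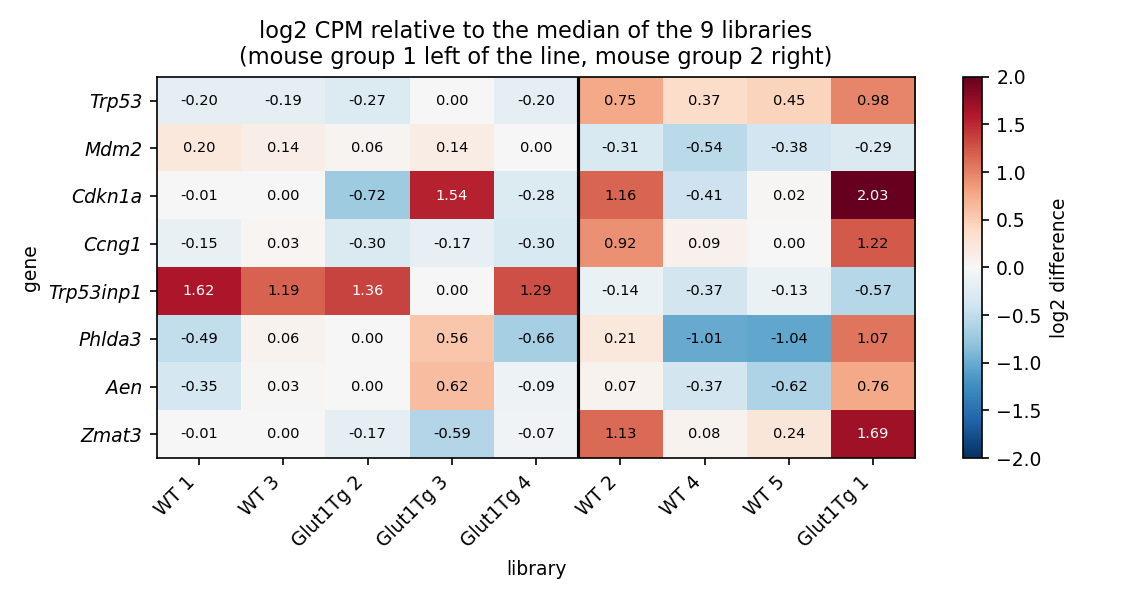
log2 CPM of each gene (rows) in each library (columns) minus that gene's median over the 9 libraries. Red is above and blue below the median, and the black line separates mouse group 1 from mouse group 2. Trp53inp1 is between 1.19 and 1.62 above its median in 4 libraries of mouse group 1 and at or below it elsewhere, and Cdkn1a is high in Glut1Tg replicates 1 and 3 and WT replicate 2.

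Read by library, Glut1Tg replicate 1 was the highest of the 9 libraries for 6 of the 8 genes, as it was for 22.6% of all genes tested, and the lowest for Trp53inp1. It lay above all 3 WT libraries of its mouse group for 7 of the 8, with Mdm2 only just above (109 against 108 CPM), and below them for Trp53inp1. Of all genes tested, 34.2% lay above those 3 libraries and 30.7% below. WT replicate 2 followed it for Trp53, Ccng1 and Zmat3, at 0.75, 0.92 and 1.13 above the library median on the log2 scale. For Phlda3 and Aen it lay 0.21 and 0.069 above. Glut1Tg replicate 3 was 1.54 above the median for Cdkn1a, 0.56 for Phlda3 and 0.62 for Aen, and 0.59 below it for Zmat3.

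Per kilobase of annotated exon, a scale on which genes can be compared, Trp53inp1 had the highest mean level over the 9 libraries, 90.7 ± 52.7 CPM per kilobase (SD, n = 9). Ccng1 followed at 43.3 ± 19.7, Trp53 at 33.2 ± 11.5, Cdkn1a at 28.5 ± 21.5 and Mdm2 at 24.7 ± 4.52 CPM per kilobase. Phlda3 (12.3 ± 6.39), Aen (7.74 ± 2.58) and Zmat3 (4.45 ± 2.72) were lower. Neighbours in that order differed by more than both of their SDs only for Mdm2 above Phlda3 and Aen above Zmat3. Exon lengths came from GENCODE M21, and which isoforms the cells used was not measured.

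Pairs of members shared their pattern over libraries to different degrees. On log2 CPM over the 9 libraries, Pearson's r was 0.95 for Phlda3 with Aen and for Ccng1 with Zmat3, given as a description because libraries shared a mouse group. Over the 7 libraries without Glut1Tg replicate 1 and WT replicate 2, r for Phlda3 with Aen was 0.92, and r for Ccng1 with Zmat3 was 0.48. Trp53 ran against Trp53inp1 (r = -0.87 over 9 libraries and -0.90 over 7) and against Mdm2 (r = -0.78 and -0.89). Of 8589 named genes with a mean of at least 10 CPM, the 3 most like Trp53 over 9 libraries were Smarcb1, a subunit of the SWI/SNF chromatin remodeller (r = 0.997), the splicing factor Srsf1 (r = 0.994) and the mitochondrial ribosomal protein Mrps6 (r = 0.993). Those most like Cdkn1a were Lsm12 (r = 0.985), the ribosome biogenesis factor Bysl (r = 0.970) and the cyclin-dependent kinase Cdk6 (r = 0.967), and those most like the mean standardized level of the 7 targets were the alanyl-tRNA synthetase Aars (r = 0.977), the GTPase Drg2 (r = 0.972) and the chaperone Hspa4 (r = 0.971).

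The genotype difference itself could depend on mouse group, and the interaction was tested for this. None of the 8 passed by edgeR or DESeq2, and 2 had an unadjusted edgeR p under 0.05. Of all 14817 genes 0 (0%) passed by edgeR and 6 by DESeq2, and 786 (5.3%) had an unadjusted edgeR p under 0.05. The largest estimates were 1.39 for Zmat3 (SE 0.49), 1.33 for Phlda3 (SE 0.73), 1.08 for Cdkn1a (SE 1.06) and 1.02 for Ccng1 (SE 0.43) on the log2 scale (edgeR adjusted p = 0.741 for Zmat3, Phlda3 and Ccng1 and 0.763 for Cdkn1a). They rest on 1 Glut1Tg library in mouse group 2. When WT replicate 2 was left out, Ccng1 passed (log2 1.34; edgeR adjusted p = 0.0474), where 0.83% of all genes did.

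The wider p53 network was then described from lists chosen with earlier results of these data known, so their counts beside those of all genes are descriptions. Of 27 tested regulators of p53, 8 were higher and 2 lower in mouse group 2, where 13.1% of all genes tested were higher and 11% lower. For genotype 0 passed by edgeR and 1 had an unadjusted p under 0.05, which 6% of all genes had. The Mdm2 partner Mdm4, which blocks p53 without degrading it well on its own, rose where Mdm2 fell: 370 ± 40.1 CPM in mouse group 2 (SD, n = 4) against 251 ± 42.4 in mouse group 1 (SD, n = 5; log2 0.51; edgeR adjusted p = 0.0432). The deubiquitinase Usp7, which stabilizes Mdm2 and p53, had 237 ± 17.1 and 298 ± 26.3 CPM (log2 -0.34; edgeR adjusted p = 0.0660). The ribosomal proteins Rpl5 and Rpl11, which bind Mdm2, had log2 fold changes of -0.38 and -0.40 (edgeR adjusted p = 0.123 and 0.139). Chosen after their values were seen, the damage kinase Chek2 rose 3.12-fold (edgeR adjusted p = 0.00527), and Rchy1, another ligase for p53, fell to 0.591-fold (edgeR adjusted p = 0.0154). With Glut1Tg replicate 1 and WT replicate 2 left out, 1 regulator was higher and 0 lower, where 4% of all genes passed.

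Other p53 targets outside the BCL-2 family were called about as often as genes in general. Of 60 tested, 6 were higher and 8 lower in mouse group 2, where 13.1% of all genes were higher and 11% lower, and the median log2 fold change was 0.032, against -0.014 over all genes tested. For genotype 0 of the 60 passed by edgeR, and 2 had an unadjusted p under 0.05, which 6% of all genes had. The list's genotype median was 0.17 against 0.022. Of the most abundant, the peptide transporter Tap1 had 429 ± 41.5 CPM in mouse group 2 against 457 ± 107 CPM in the other, the antioxidant enzyme Gpx1 259.5 ± 81.6 and 241 ± 109.9, and the phosphatase Ptp4a3 166 ± 21.2 and 153 ± 9.60, none of which passed. The autophagy kinase Ulk1 fell to 0.397-fold (83.0 ± 11.9 against 198 ± 48.4 CPM; edgeR adjusted p = 0.00461). Chosen after their values were seen, Rrm2b, a ribonucleotide reductase subunit for DNA repair, rose 2.02-fold (edgeR adjusted p = 0.00343), Polk, a DNA polymerase that copies past damage, rose 2.28-fold (edgeR adjusted p = 0.0152), and the transcription factor Klf4 fell to 0.260-fold (edgeR adjusted p = 0.00623). Leaving out Glut1Tg replicate 1 and WT replicate 2 gave 1 higher and 2 lower, where 4% of all genes passed.

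Genes that p53 represses through p21 and the DREAM complex, the machinery of replication and mitosis, were mostly higher in mouse group 2. Of 32 tested, 25 were higher and 0 lower in mouse group 2 (13.1% and 11% of all genes), with a median log2 fold change of 1.39 against -0.014 over all genes tested. Mki67 ran from 393 to 1652 CPM in mouse group 2 (n = 4) and from 346 to 606 CPM in mouse group 1 (n = 5). Means were higher in mouse group 2 for the DNA topoisomerase Top2a (1100.0 ± 656 against 278 ± 66.6 CPM), the replicative helicase subunit Mcm6 (399.7 ± 215 against 184 ± 15.6 CPM) and the centromere histone Cenpa (215 ± 59.8 against 139 ± 16.2 CPM). These 4 were among the 25 that passed. By edgeR 0 of the 32 passed without Glut1Tg replicate 1 and WT replicate 2 (median 0.40), where 4% of all genes passed. Among WT libraries 0 passed (median 1.1), where 4.33% of all genes did. An unadjusted p under 0.05 was reached without those libraries by 6 of the 32 and by 3262 of all 14817 genes. Among WT libraries it was reached by 9 of the 32 and by 3602 of all genes. For genotype 0 of the 32 passed, and 0 had an unadjusted edgeR p under 0.05, which 6% of all genes had. All 32 genotype estimates were positive (median 0.36), as were 52.4% of those of all genes. These signs come from the same libraries and are not 32 separate checks. Glut1Tg replicate 1, which led in Mki67, is the only Glut1Tg library of mouse group 2. Within mouse group 1, mean Mki67 was lower for Glut1Tg (483 CPM, n = 3) than for WT (521 CPM, n = 2), and libraries overlapped. The genotype signs of the whole list without Glut1Tg replicate 1 were not tested.

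Of 20 genes of the cyclins, kinases and inhibitors around p21, 9 were higher and 2 lower in mouse group 2. Of all genes, 13.1% were higher and 11% lower. By edgeR 0 of the 20 passed for genotype, and 1 had an unadjusted p under 0.05, which 6% of all genes had. Cyclin D2 (Ccnd2) rose 2.85-fold (377 ± 238 against 143 ± 30.7 CPM; edgeR adjusted p = 0.0258) and cyclin D3 (Ccnd3) 1.86-fold (edgeR adjusted p = 0.00835). The sister inhibitor of p21, p27 (Cdkn1b), fell to 0.455-fold (153 ± 55.6 against 287 ± 92.6 CPM; edgeR adjusted p = 0.0381), and the sliding clamp Pcna had a fold of 2.11 that did not pass (edgeR adjusted p = 0.0583). When Glut1Tg replicate 1 and WT replicate 2 were left out, 1 was higher and 0 lower (4% of all genes passed).

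Among 16 tested glucose and mitochondrial genes named as p53 targets, Slc2a1 passed for genotype (7.58-fold; edgeR adjusted p = 0.000903), the gene of the transporter that the transgene is named for, so this is no independent result. For mouse group 5 were higher and 3 lower, where 13.1% of all genes were higher and 11% lower. Slc2a1 was lower in mouse group 2 with genotype in the model (0.613-fold; edgeR adjusted p = 0.0248), the glycolytic enzyme Pgam1 was 2.77-fold higher (edgeR adjusted p = 0.0241) and Sesn1, a stress-induced inhibitor of mTORC1, fell to 0.417-fold (95.4 ± 35.5 against 187 ± 68.8 CPM; edgeR adjusted p = 0.0364). Fdxr, a mitochondrial reductase, chosen after its values were seen, rose 2.74-fold (45.3 ± 9.94 against 17.5 ± 2.04 CPM; edgeR adjusted p = 0.00132). Omitting Glut1Tg replicate 1 and WT replicate 2 left 1 higher and 0 lower, where 4% of all genes passed.

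**Figure D4:**
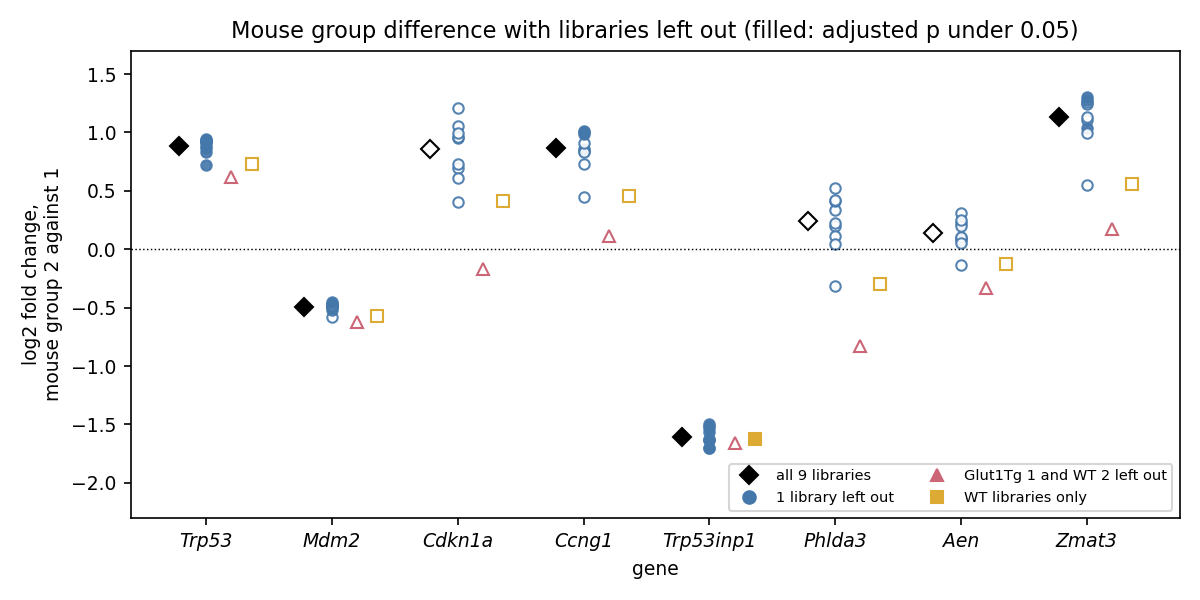
Log2 fold change of each gene (x axis) for mouse group 2 against mouse group 1 (y axis) with all 9 libraries (black diamonds), with each library left out in turn (blue circles), without Glut1Tg replicate 1 and WT replicate 2 (red triangles) and among WT libraries only (yellow squares). Filled symbols passed at an adjusted p under 0.05. Trp53, Mdm2 and Trp53inp1 keep their sign and most of their size throughout, while Ccng1 and Zmat3 fall to 0.11 and 0.17 without both libraries.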

How the data were processed

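RNeasy-purified RNA was made into stranded TruSeq mRNA libraries and read as 75 bp pairs, per the labels' protocols. The submitters' processing notes name TopHat2, featureCounts, bcl2fastq, DESeq2 and build mm10, and the sources used here do not give versions or the strand setting. The deposited raw count table holds whole-number counts per gene. The deposited log2 table, in which WT replicates 1 and 3 sum to 0 in each gene, served for 1 alternative, and how the authors made it is not stated. Columns were matched to libraries by genotype and number. The counts entered edgeR 4.0.16 under R 4.3.3 (filterByExpr, TMM, quasi-likelihood test, Benjamini-Hochberg adjustment over 14817 genes, threshold 0.05), with mouse group and genotype as terms. SE is the absolute log2 fold change divided by the square root of the F statistic, and the fit was tested on simulated counts. DESeq2 1.42.0 and limma 3.58.1 served as alternatives, beside other size factors, no filter on low counts, libraries left out, a replicate block and no mouse group term. CPM used TMM-scaled totals, and likeness and profiles used log2 CPM with a prior count of 2. All 8 members were named, and from each list the genes passing for genotype and up to 4 with the highest mean CPM. Outside that rule, Chek2, Rchy1, Rrm2b, Polk, Klf4 and Fdxr were named after their values were seen. Members and lists were chosen with earlier results of these data known.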

Additional observations from a re-analysis of the deposited data

Results flagged for a closer look

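Of 32 sets of libraries examined (each of the 8 genes in each genotype and each mouse group), 8 held a library whose gap to its nearest neighbour was too large a part of the range. Chance flags about 1 in 20 sets where values are independent draws from 1 normal population. These sets do not meet that. Genotype sets mix mouse groups, and Glut1Tg replicate 1 is the only Glut1Tg library of mouse group 2. Each library is also in both a genotype set and a mouse group set. The 8 flags are thus a description and no test against chance. Glut1Tg replicate 1 stood above the other Glut1Tg libraries for Trp53 (221.5 CPM, next 112), Ccng1 (298 CPM, next 114) and Zmat3 (122 CPM, next 36). WT replicate 2 stood above the other WT libraries for Cdkn1a (141 CPM, next 63.9), Ccng1 (241 CPM, next 135) and Zmat3 (82.3 CPM, next 44.4). Within mouse group 1, Glut1Tg replicate 3 stood above the rest for Trp53 (112 CPM, next 98.6) and Cdkn1a (184 CPM, next 63.2).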

How the results depend on the processing

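With 1 gene called for genotype in the main model, 2 were called with no filter on low counts and 7 by DESeq2, and 0 without Glut1Tg replicate 1 and WT replicate 2, with the replicate block, from the deposited log2 table or within mouse group 1. Leaving out 1 library gave 1 to 2. For mouse group the 3576 calls became 593 without those 2 libraries, 642 in WT only (chosen after seeing the data) and 0 with the replicate block, and ran from 668 to 4552 over single omissions. Interaction calls were 6 by DESeq2 and 0 to 123 over single omissions, and could not be fitted without Glut1Tg replicate 1. Replicate numbers did not pair libraries: deviations of same-numbered libraries correlated at -0.51, -0.59, 0.23 and -0.21, and 3 of the 4 pairs crossed mouse groups. With the replicate block the mouse group adjusted p was 0.0517 for Trp53inp1 and 0.0571 for Trp53.

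Signs changed for genotype in Ccng1 and Zmat3 (-0.22 and -0.28 without both libraries, -0.20 and -0.26 within mouse group 1, and -0.22 to 0.37 and -0.28 to 0.45 over single omissions), and with no mouse group term in Trp53 (-0.061), Mdm2 (0.13) and Trp53inp1 (0.070). Without Glut1Tg replicate 1, alone or with WT replicate 2, the genotype estimate rests on mouse group 1 only. Those settings and the fit within mouse group 1 are thus the same contrast and not separate checks. For mouse group, signs changed without both libraries in Cdkn1a (-0.17), Phlda3 (-0.83) and Aen (-0.33), and in WT only in Phlda3 (-0.30) and Aen (-0.13). Single omissions ran from -0.32 to 0.52 for Phlda3 and -0.14 to 0.31 for Aen. The interaction of Trp53inp1 ran from -0.28 to 0.26. The cause was not tested. With no filter on low counts Mdm2 had an adjusted p of 0.0522 for mouse group. The number of libraries limits precision: log2 fold changes for mouse group had a median SE of 0.25.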
